A study of Homo sapiens with 4 samples.

Results

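The genes described here encode ribosome assembly and nucleolar factors, the proteins that transcribe, cut, modify and fold ribosomal RNA into the 2 ribosomal subunits. A list of 58 such genes was taken by name, with earlier results of these data known, and a gene counted as measured where the array's annotation gives a probe set to it alone. This held for 51 of the 58 genes, with 100 probe sets, out of 19775 genes in all. NOP56, DKC1, BOP1 and PPAN have only probe sets listed with other genes as well, and GNL3, DDX18 and EBNA1BP2 were not analysed here.

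Kit225 is a human leukaemic T cell line that needs interleukin-2 (IL-2) to grow, and all of its cells here grew with 20 U/ml IL-2. NC1153, known as an inhibitor of JAK3, a kinase of the IL-2 receptor, was given for 12 hours at 25 mM as the labels write it (the unit could not be checked), and the other cells received 0.1% DMSO, the solvent. Each condition has 2 arrays (Affymetrix HG-U133 Plus 2.0), numbered 1 and 2, all from 1 cell line, and the labels do not say whether the numbers stand for separate cultures. The p-values therefore reflect the spread among these 4 arrays alone, and that spread may be technical.

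Ribosome assembly starts in the nucleolus, where RNA polymerase I makes a long precursor. Small nucleolar ribonucleoproteins (snoRNPs) methylate and pseudouridylate it, the small subunit processome folds and cuts its 5′ part, and a separate set of factors builds the large subunit. Both pre-subunits are then exported and finished in the cytoplasm. The transcription factor MYC is known to drive many of these genes through the E-box, the letters CACGTG, and growing T cells need the pathway to build up protein synthesis.

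Promoters are shown because many genes of this pathway have an E-box near the transcription start. Whether the E-box bears on their change was not tested. Windows of 300 bases, from 250 before to 50 after the start, were taken from RefSeq (GRCh38.p14). They were found for 50 of the 58 listed genes, as 60 windows, and the letters CACGTG, which read the same on both strands, stood in 25 of those 60 (41.7%), against 7.26% of all 35116 windows in the table. By gene, 24 of 50 (48.0%) had an E-box, against 10.9% of the 15384 genes on the array with a window. In 22 of the 50 genes (44.0%) an E-box lay wholly within 50 bases of the start, against 4.43% of those array genes. Below, 100 bases before to 30 after the start are printed 5′ to 3′ on the gene's own strand, with E-boxes in capitals. RRP9, UTP20 and GNL2 had the largest falls among genes with an E-box inside that stretch, and UTP15 and WDR3 the largest among genes with none in the whole window. FBL and NOP10 have an E-box inside that stretch, NOP10 has another further upstream in its window, and NOB1 has none in its window. These genes had the changes nearest to 0.
RRP9, chr3:51941875-51942004, minus strand: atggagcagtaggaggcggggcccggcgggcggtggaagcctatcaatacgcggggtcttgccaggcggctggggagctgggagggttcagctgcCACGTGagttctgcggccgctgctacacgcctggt
UTP20, chr12:101280005-101280134, plus strand: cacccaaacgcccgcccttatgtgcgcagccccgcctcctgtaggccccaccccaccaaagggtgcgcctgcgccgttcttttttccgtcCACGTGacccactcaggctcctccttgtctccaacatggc
GNL2, chr1:37595908-37596037, minus strand: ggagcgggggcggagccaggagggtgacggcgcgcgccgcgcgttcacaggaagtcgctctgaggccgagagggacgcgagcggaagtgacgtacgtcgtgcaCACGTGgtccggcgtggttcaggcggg
UTP15, chr5:73565643-73565772, plus strand: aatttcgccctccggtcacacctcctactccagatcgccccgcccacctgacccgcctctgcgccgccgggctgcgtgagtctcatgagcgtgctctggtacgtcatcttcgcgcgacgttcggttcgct
WDR3, chr1:117929639-117929768, plus strand: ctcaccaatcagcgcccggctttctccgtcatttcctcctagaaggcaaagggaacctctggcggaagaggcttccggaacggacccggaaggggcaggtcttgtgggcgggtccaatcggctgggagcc
FBL, chr19:39846350-39846479, minus strand: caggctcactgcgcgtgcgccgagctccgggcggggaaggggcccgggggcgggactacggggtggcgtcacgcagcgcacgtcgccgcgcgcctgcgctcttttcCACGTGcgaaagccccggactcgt
NOP10, chr15:34343107-34343236, minus strand: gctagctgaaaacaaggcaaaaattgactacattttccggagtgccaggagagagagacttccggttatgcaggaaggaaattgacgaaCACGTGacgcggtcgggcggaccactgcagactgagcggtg
NOB1, chr16:69754897-69755026, minus strand: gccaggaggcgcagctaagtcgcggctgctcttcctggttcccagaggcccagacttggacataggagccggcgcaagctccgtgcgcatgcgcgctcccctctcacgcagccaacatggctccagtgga

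The question was how this pathway's transcripts differed after 12 hours of NC1153. Of the 51 measured genes 38 were lower with NC1153 and 0 were higher, by limma on log2 signals with a Benjamini-Hochberg adjusted p under 0.05 over all 54613 probe sets tested. Among all genes 2.84% were lower and 3.09% were higher. The median log2 change over the 51 genes was -0.92, against 0.0020 over all genes, and it was -0.90 within replicate 1 and -0.89 within replicate 2. Of the 38 calls, 19 were at least 2-fold (log2 change of -1 or lower), against 1.34% of all genes. On the arrays themselves, both NC1153 signals lay below both DMSO signals for 47 of the 51 genes, against 23.8% of all genes, and above both for NPM1 alone, against 24.5% of all genes. The other 3, NOB1, NOP10 and FBL, overlapped. In bulk RNA, fewer cells of a kind and less RNA per cell cannot be told apart.

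These counts rest on the variance model and on how the arrays are brought to a common scale. With a term for the replicate number (a replicate block) 41 were lower, and the calls over the whole array were 1936 lower and 2061 higher, against 971 and 1062 without it. With no trend in limma's prior variance, 0 of the 51 genes were lower, with 30 at an unadjusted p under 0.05 (44 with the trend), and 0 of all probe sets were called. With each array centred on its median, 0 were lower, with 40 at an unadjusted p under 0.05, and 24 of all probe sets were called lower. With the log2 values of a gene's probe sets averaged, 25 were lower. Leaving out 1 array leaves 1 array in its group, which is then assumed to vary like the other group, so that the spread comes from the 2 arrays of that group and from the prior over all probe sets. Leaving out single arrays in this way left between 30 and 34 lower, and 29 of the 38 calls held without any one array.

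**Figure D1:**
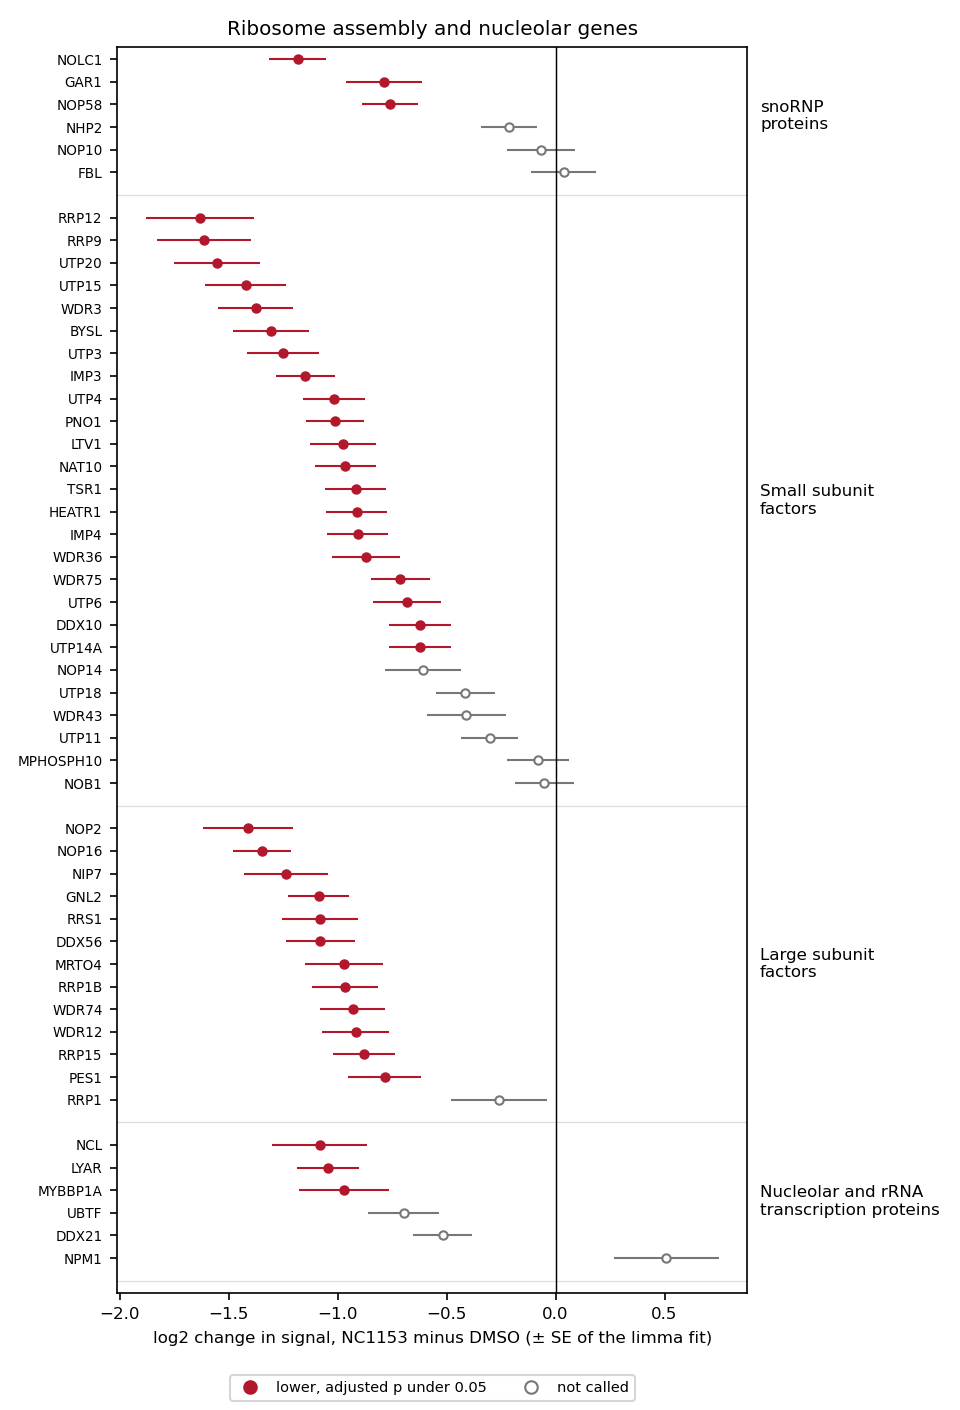
The log2 change in signal, NC1153 minus DMSO, is shown for each of the 51 genes by role, with the standard error of the limma fit. Filled points are the 38 genes lower at an adjusted p under 0.05, and all but NPM1 and FBL lie below 0.

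The arrays differ in their scaling and quality values. Per the file headers, the scaling factor was 6.681 for NC1153 replicate 1 and between 2.656 and 2.967 for the others, so that this array was the dimmest before scaling. The ratio of 3′ to 5′ actin signal, a sign of RNA integrity that is higher in more degraded RNA, was 4.47 and 3.89 with NC1153 and 3.54 and 3.82 with DMSO, per the file headers, so that both NC1153 arrays lay above both DMSO arrays. The same ratio for GAPDH was 0.93 and 0.92 with NC1153 and 0.91 and 0.94 with DMSO, and the groups overlapped. The median signal of an array was 88.6 and 61.8 with NC1153 and 69.7 and 69.6 with DMSO. The 18 spike-in control probe sets (bioB, bioC, bioD and cre), for bacterial and phage RNA added at hybridization, had a median log2 change of 0.42. They follow the hybridization step and not the amount of RNA per cell. Of 10 T cell markers, 5 (CD2, CD4, IL2RA, PTPRC and CD247) were above the median signal of all values, 72.3, on all 4 arrays, while CD3D, CD3E, CD3G, CD5 and LCK were not. Of 8 measured markers of B cells, myeloid cells, red cells, fibroblasts and epithelium, CD79A alone was, and their signals summed to 865 and 508 with NC1153 and 422 and 548 with DMSO. The T cell marker signals summed to 41370 and 35412 with NC1153 and 47306 and 43777 with DMSO. The part of these differences in the results was not tested.

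Among the snoRNP proteins NOLC1, NOP58 and GAR1 were lower, and FBL, NOP10 and NHP2 were not called. These 6 measured genes had a median log2 change of -0.49. NOLC1, also known as Nopp140, a chaperone that carries snoRNPs to the nucleolus, had signals of 5961 and 5700 with NC1153 and 14039 and 12487 with DMSO. The DMSO signals were more than 2-fold above the NC1153 signals in both replicates, a log2 change of -1.18 (SE 0.13, adjusted p = 0.0027), and its 2 other probe sets were also lower. NOP58, a scaffold of the box C/D snoRNPs that guide methylation, had 5085 and 5492 with NC1153 and 8666 and 9244 with DMSO, a log2 change of -0.76 (adjusted p = 0.015). GAR1, a core protein of the box H/ACA snoRNPs that guide pseudouridylation, had 2181 and 2866 with NC1153 and 4765 and 3912 with DMSO. Its groups did not overlap but its replicates were uneven, with a log2 change of -0.79 (adjusted p = 0.040).

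The changes of FBL, NOP10 and NHP2 had intervals that include 0. FBL, the methyltransferase of the box C/D particles, had 25034 and 19809 with NC1153 and 22498 and 20942 with DMSO, and its log2 change of 0.04 had a 95% interval of -0.30 to 0.37. NOP10, the smallest H/ACA core protein, had 16798 and 12804 with NC1153 and 16004 and 14763 with DMSO, a log2 change of -0.07 (95% interval -0.42 to 0.28). In both genes NC1153 replicate 1 was above and NC1153 replicate 2 below the DMSO arrays. NHP2, which binds the H/ACA RNA beside them, had a log2 change of -0.22 (95% interval -0.51 to 0.07). The sign for FBL was negative after quantile normalization (-0.12) and median centring (-0.052) and with the arrays centred on their spiked-in controls (-0.39), called spike-in centring below, where the median of all probe sets was -0.41. Without DMSO replicate 1 the count of lower snoRNP genes was 1. The GAR1 call did not hold without NC1153 replicate 1 (adjusted p = 0.12), without DMSO replicate 1 (0.19) and with spike-in centring (0.053), and that of NOP58 without DMSO replicate 1 (0.0504) or DMSO replicate 2 (0.095).

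**Figure D2:**
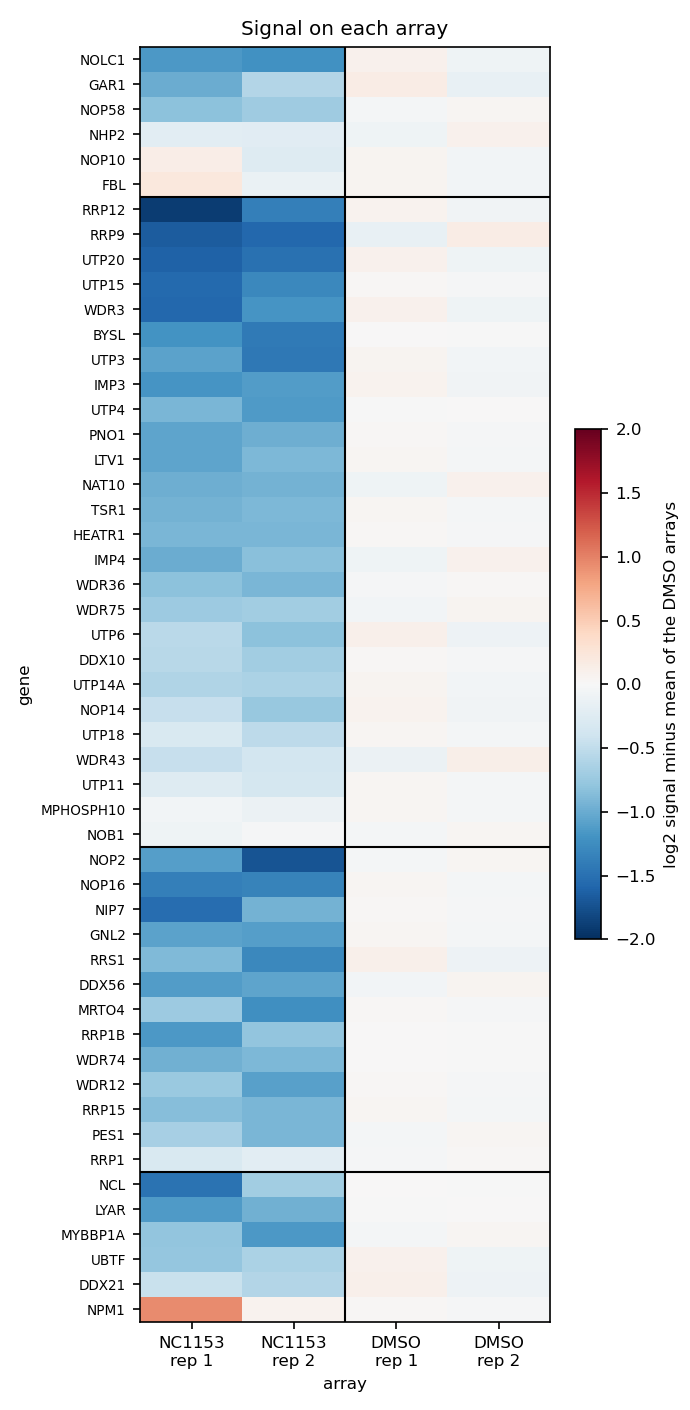
Each row is a gene and each column an array, coloured by the log2 signal minus the mean of the 2 DMSO arrays, with black lines between roles. Both NC1153 columns are blue for most genes, NPM1 is red on NC1153 replicate 1, and FBL and NOP10 are close to white.

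All 26 small subunit factors were measured, all had a negative log2 change and 20 were lower, with a median of -0.92. RRP12, whose yeast counterpart is needed for export of the pre-subunits, had signals of 219 and 318 with NC1153 and 854 and 782 with DMSO. This was a log2 change of -1.63 (SE 0.25, adjusted p = 0.0095), the lowest of the 51 genes. RRP9, a protein of the U3 snoRNP that pairs with the precursor, had 288 and 307 with NC1153 and 821 and 1008 with DMSO. Its log2 change was -1.61 (SE 0.22, adjusted p = 0.0057), and the groups lay far apart in both replicates. UTP20, a very long scaffold protein of the processome, had 347 and 377 with NC1153 and 1123 and 1004 with DMSO, a log2 change of -1.55 (SE 0.20, adjusted p = 0.0047).

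The processome is built from subcomplexes, and each had lower members. In UtpA, which binds the 5′ end of the precursor first, UTP15 had 449 and 544 with NC1153 and 1348 and 1303 with DMSO, a log2 change of -1.42 (adjusted p = 0.0051). UTP4 (-1.02), HEATR1 (-0.91) and WDR75 (-0.71) were also lower, so that 4 of its 5 members fell, and WDR43 had -0.41 (adjusted p = 0.31). In UtpB, which follows, WDR3 had 1142 and 1496 with NC1153 and 3595 and 3210 with DMSO, a log2 change of -1.38 (adjusted p = 0.0042). WDR36 (-0.87) and UTP6 (-0.68) fell as well, and UTP18 had -0.42 (adjusted p = 0.16). The 3 partners of the Mpp10 complex, which holds the U3 RNA on the precursor, did not move alike: IMP3 had -1.15 and IMP4 -0.91, both lower, whereas MPHOSPH10 itself did not pass. MPHOSPH10 had 1990 and 1906 with NC1153 and 2119 and 1999 with DMSO, a log2 change of -0.08 with a 95% interval of -0.40 to 0.24. That interval does not overlap those of IMP3 (-1.45 to -0.84) and IMP4 (-1.22 to -0.59), and the differences between these genes were not tested.

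Of the other early factors, UTP3 (-1.25), the rRNA cytidine acetyltransferase NAT10 (-0.97), the helicase gene DDX10 (-0.62) and UTP14A (-0.62), which activates a processome helicase, were lower. NOP14 (-0.61, adjusted p = 0.10) and UTP11 (-0.30, adjusted p = 0.31) did not pass. Among factors that finish the small subunit, BYSL (-1.31), PNO1 (-1.01), LTV1 (-0.98) and TSR1 (-0.92) were lower beside RRP12. NOB1, the nuclease that makes the last cut of the small subunit RNA and binds PNO1, had 2942 and 3074 with NC1153 and 3040 and 3193 with DMSO. Its groups overlapped, with a log2 change of -0.05 and a 95% interval of -0.35 to 0.25, while PNO1 had 2438 and 2562 with NC1153 and 5137 and 4954 with DMSO.

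The small subunit calls near the threshold depended on single arrays. UTP14A and DDX10 were lost without any one of the 4 arrays (adjusted p between 0.059 and 0.37 for UTP14A and between 0.058 and 0.31 for DDX10). WDR75 was lost without NC1153 replicate 1 (0.0504), DMSO replicate 1 (0.074) or DMSO replicate 2 (0.13). UTP6 was lost without NC1153 replicate 2 (0.083) or DMSO replicate 1 (0.31), and WDR36 without DMSO replicate 2 (0.052). UTP6 (0.059) and DDX10 (0.054) also missed the threshold after quantile normalization. Probe sets ending in _s_at, _x_at or _a_at can match several transcripts. With them left out, the calls of RRP12 (-1.07, adjusted p = 0.58), WDR3 (-0.46, adjusted p = 0.92) and PNO1 (-1.34, adjusted p = 0.075) were lost. The probe sets that took their place were dimmer. That of RRP12 had 31.5 and 48.8 with NC1153 and 101 and 67.3 with DMSO. That of WDR3 had 119 and 14.7 with NC1153 and 39.3 and 84.2 with DMSO. That of PNO1 had 105 and 159 with NC1153 and 344 and 310 with DMSO. With probe sets averaged, 13 of the 26 genes were lower.

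Of 13 measured large subunit factors 12 were lower, with a median log2 change of -0.97, and both NC1153 arrays lay below both DMSO arrays in all 13. NOP2, which methylates the large subunit RNA, had signals of 1140 and 744 with NC1153 and 2381 and 2523 with DMSO, a log2 change of -1.41 (SE 0.21, adjusted p = 0.0083). NOP16, a nucleolar protein of the early large subunit, had 2230 and 2266 with NC1153 and 5870 and 5581 with DMSO. The arrays of each group lay close together, and its log2 change of -1.35 had the lowest adjusted p of the 51 genes (SE 0.13, adjusted p = 0.0017). NIP7 had 1102 and 1637 with NC1153 and 3227 and 3111 with DMSO, a log2 change of -1.24 (adjusted p = 0.011). GNL2, a GTPase of the pre-60S particle, had 1519 and 1479 with NC1153 and 3289 and 3089 with DMSO, a log2 change of -1.09 (adjusted p = 0.0050). RRS1, which brings in the 5S RNA particle with its partners, had 1732 and 1312 with NC1153 and 3436 and 2965 with DMSO, a log2 change of -1.08 (adjusted p = 0.012).

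The helicase gene DDX56 (-1.08), MRTO4 (-0.97), which holds the place of the ribosomal stalk, WDR74 (-0.93) and RRP15 (-0.88) also fell. PES1 and WDR12, which form the PeBoW complex with BOP1, had log2 changes of -0.79 and -0.92. PES1 had 1013 and 847 with NC1153 and 1561 and 1633 with DMSO, and WDR12 had 2965 and 2335 with NC1153 and 5077 and 4871 with DMSO. The PES1 call (adjusted p = 0.035) failed without NC1153 replicate 2 (0.065), DMSO replicate 1 (0.094) or DMSO replicate 2 (0.12). With probe sets averaged, 7 of the 13 genes were lower.

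RRP1 and RRP1B are paralogs that are both linked to processing of the large subunit RNA. RRP1B had 3518 and 4537 with NC1153 and 7876 and 7743 with DMSO, a log2 change of -0.97 (95% interval -1.31 to -0.62, adjusted p = 0.011). RRP1 had 383 and 409 with NC1153 and 468 and 480 with DMSO, a log2 change of -0.26 (95% interval -0.76 to 0.24, adjusted p = 0.67). RRP1 was the large subunit factor that did not pass, its interval overlaps that of RRP1B, and the difference between the paralogs was not tested.

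The 6 nucleolar and rRNA transcription proteins split, with 3 lower and a median log2 change of -0.84. NCL encodes nucleolin, one of the most plentiful nucleolar proteins. It had 5470 and 9355 with NC1153 and 15226 and 15090 with DMSO, a log2 change of -1.08 (adjusted p = 0.028) that was -1.48 within replicate 1 and -0.69 within replicate 2. LYAR, a nucleolar zinc finger protein, had 1537 and 1739 with NC1153 and 3340 and 3407 with DMSO, a log2 change of -1.04 (adjusted p = 0.0063). MYBBP1A, a nucleolar regulator of rRNA synthesis, had 528 and 410 with NC1153 and 892 and 933 with DMSO, a log2 change of -0.97 (adjusted p = 0.035). The groups did not overlap in these 3 genes, and NCL had uneven NC1153 arrays.

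UBTF, the factor that opens ribosomal DNA for RNA polymerase I, had 896 and 986 with NC1153 and 1617 and 1439 with DMSO, a log2 change of -0.70 (adjusted p = 0.052). Its probe sets disagreed: another bright one had 1071 and 870 with NC1153 and 793 and 930 with DMSO, and its groups overlapped. DDX21, a helicase of the nucleolus, had 12263 and 11110 with NC1153 and 17899 and 15621 with DMSO, a log2 change of -0.52 (adjusted p = 0.076). Its second probe set, with a log2 change of -0.77, was lower (adjusted p = 0.014). With the replicate block, in which the replicate number is a term of the fit, UBTF (0.015) and DDX21 (0.022) passed as well, so that 5 of the 6 genes were lower.

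NPM1, nucleophosmin, a nucleolar chaperone with many processed pseudogenes, was the gene that lay higher. It had 54530 and 29624 with NC1153 and 28859 and 27666 with DMSO, so that NC1153 replicate 1 alone stood apart. The log2 change was 0.51 (95% interval -0.03 to 1.05, adjusted p = 0.36). Its 2 other probe sets gave 0.16 and 0.06 and were not called. Without NC1153 replicate 2 NPM1 was called higher, with a log2 change of 0.95 (adjusted p = 0.0080), but this sets NC1153 replicate 1 alone against the 2 DMSO arrays, with no spread of its own. NC1153 replicate 1 is the array with the largest scaling factor, and the part of that in the NPM1 signal was not tested. The MYBBP1A call did not hold without NC1153 replicate 2 (adjusted p = 0.069), DMSO replicate 1 (0.072) or DMSO replicate 2 (0.086), and that of NCL with spike-in centring (0.052).

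Where genes had several probe sets, they mostly pointed the same way. Of the 51 genes 31 had more than 1, and of the 49 further probe sets 15 were lower, 0 were higher and 7 had the opposite sign to the probe set used. The 7 belong to NCL, NOP16, RRP12, UTP6 and WDR74, with 1 each, and UBTF, with 2. In 5 of them the mean signal was below the median of all values, 72.3, and over all 7 adjusted p lay between 0.42 and 0.98. For UTP6 the further probe set had 47.4 and 27.2 with NC1153 and 10.9 and 7.19 with DMSO. The one used had 2374 and 1966 with NC1153 and 3706 and 3243 with DMSO. The groups did not overlap on either UTP6 probe set, and the directions were opposite. For NCL the further one had 131 and 57.0 with NC1153 and 38.9 and 132 with DMSO, and its groups overlapped. For WDR74 the further one had 22.1 and 8.64 with NC1153 and 6.74 and 5.99 with DMSO, and the one used had 1047 and 1093 with NC1153 and 2047 and 2031 with DMSO. Without suffixed probe sets the NCL call was lost (0.27, adjusted p = 0.94), as was that of WDR74 (-0.56, adjusted p = 0.15). In the authors' deposited table of selected probe sets, normalized by RMA, 51 probe sets of 37 of these genes appear, all lower with NC1153, with log2 differences between -1.95 and -0.54. Of the 38 genes lower here, 34 are in the authors' deposited table, which rests on the same arrays.

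**Figure D3:**
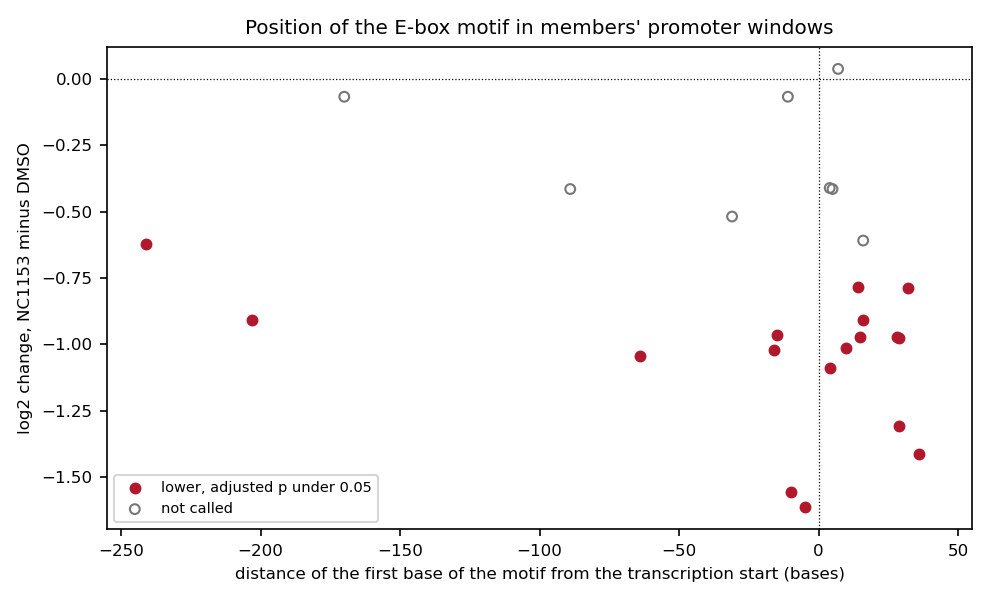
Each point is an E-box in the promoter window of a measured gene, placed by the distance of its first base from the transcription start (bases) and by the gene's log2 change, NC1153 minus DMSO. Filled points are genes that were lower and open points genes that were not called, and most points lie within 50 bases of the start.

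The E-box stood in the windows of 16 of 33 genes that were lower and of 6 of 12 that were not called, and the difference between these shares was not tested. The median log2 change was -0.97 over the 22 measured genes with an E-box and -0.91 over the 23 without. The genes printed above were chosen for their change and their letters, so they bear on no link between change and letters. By role, windows with an E-box were found for 3 of 6 snoRNP genes, 12 of 24 small subunit genes, 6 of 14 large subunit genes and 3 of 6 nucleolar genes.

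Further assembly factors were listed by their role in the pathway. Of 112 measured 33 were lower (29.5%) and 2 higher, with a median log2 change of -0.56. Among all genes 2.84% were lower and 3.09% higher, and these shares also stand beside the counts of each list below. Over the whole array the replicate block gave 1936 probe sets lower and 2061 higher, against 971 and 1062 without it. With the replicate block 50 were lower, and 13 of the 33 calls held without any one array. Of 36 further small subunit factors 12 were lower and 1 was higher. The processome helicase gene DHX37 had 200 and 222 with NC1153 and 707 and 749 with DMSO, a log2 change of -1.79 (adjusted p = 0.0051), TBL3 had -1.36 and NOM1 -1.30. RIOK3, a kinase found on pre-40S particles, was higher, with 3424 and 3389 with NC1153 and 2276 and 2201 with DMSO, a log2 change of 0.61 (adjusted p = 0.042). The RIOK3 call did not hold without NC1153 replicate 1 (log2 change 0.60), DMSO replicate 1 (0.63) or DMSO replicate 2 (0.58). It was also lost with spike-in centring (0.18, adjusted p = 0.72) and with probe sets averaged (0.45, adjusted p = 0.43). The TBL3 call was lost without NC1153 replicate 1 (-1.25) or DMSO replicate 2 (-1.19). With probe sets averaged TBL3 had -0.71 (adjusted p = 0.53), while the calls of DHX37 and NOM1 held.

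Of 41 further large subunit factors 14 were lower and 0 higher, with a median of -0.61. The 14 include MRM3 (-0.83), which methylates the large subunit RNA of mitochondrial ribosomes and so is not a factor of this pathway. The helicase gene DDX31 had 100 and 202 with NC1153 and 579 and 486 with DMSO, a log2 change of -1.90. The log2 change was -1.62 for CCDC86 and -1.45 for BRIX1, which helps install the 5S particle. CCDC86 had 667 and 659 with NC1153 and 1940 and 2135 with DMSO, with the groups far apart (adjusted p = 0.0018). Of 6 genes with a part in the last, cytoplasmic steps, which were picked after their values were seen, 5 did not pass and 1 was lower. That count may follow from the picking and is no result about these steps. Over the whole list 27 of 41 were not called. The export adaptor gene NMD3 had -0.00085, EIF6, which keeps the subunits apart, -0.19, RSL24D1 0.16, ZNF622 0.18 and the release GTPase gene EFL1 0.18. LSG1, another cytoplasmic GTPase, was lower (-0.59, adjusted p = 0.044), but not without NC1153 replicate 1 (0.077), DMSO replicate 1 (0.28) or DMSO replicate 2 (0.23). The DDX31 call did not hold without NC1153 replicate 1 (log2 change -1.39) or with probe sets averaged (-1.26, adjusted p = 0.13). The calls of CCDC86 and BRIX1 held with probe sets averaged.

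Of 15 genes listed for the trimming of the precursors 5 were lower and 1 was higher, with a median of -0.51. Their products are nucleases, subunits of the RNA exosome and the helicase MTREX, so not all of them are nucleases themselves. Of 10 measured EXOSC genes, which encode subunits of the RNA exosome, 4 were lower, 0 were higher and 6 were not called. The lowest were EXOSC4 at -1.37, EXOSC9 at -1.03 and EXOSC6 at -0.96. EXOSC1 had 0.39 (adjusted p = 0.21) and EXOSC8 0.14 (adjusted p = 0.72), both not called. The EXOSC6 call did not hold without DMSO replicate 1 (log2 change -0.90). With probe sets averaged, the calls of EXOSC6 (-0.60, adjusted p = 0.20) and EXOSC2 (-0.30, adjusted p = 0.69) were lost, and those of EXOSC4 and EXOSC9 held. ERI1, which trims the 5.8S RNA and also acts on histone mRNA, had 5672 and 4904 with NC1153 and 2218 and 2290 with DMSO. It rose by a log2 change of 1.23 (SE 0.14, adjusted p = 0.0031), which became 0.80 (adjusted p = 0.074) with spike-in centring. Of 20 further nucleolar, snoRNP assembly and rRNA transcription genes, NAF1 (-1.18), which holds the place of GAR1 while H/ACA particles form, and RUVBL1 (-0.80), an ATPase of the box C/D assembly machinery, were lower. Both calls were lost without NC1153 replicate 1 (0.052 and 0.057), and that of RUVBL1 also without DMSO replicate 1 (0.088). SNU13, a core protein of the box C/D particles like FBL, had -0.14 (adjusted p = 0.76).

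**Figure D4:**
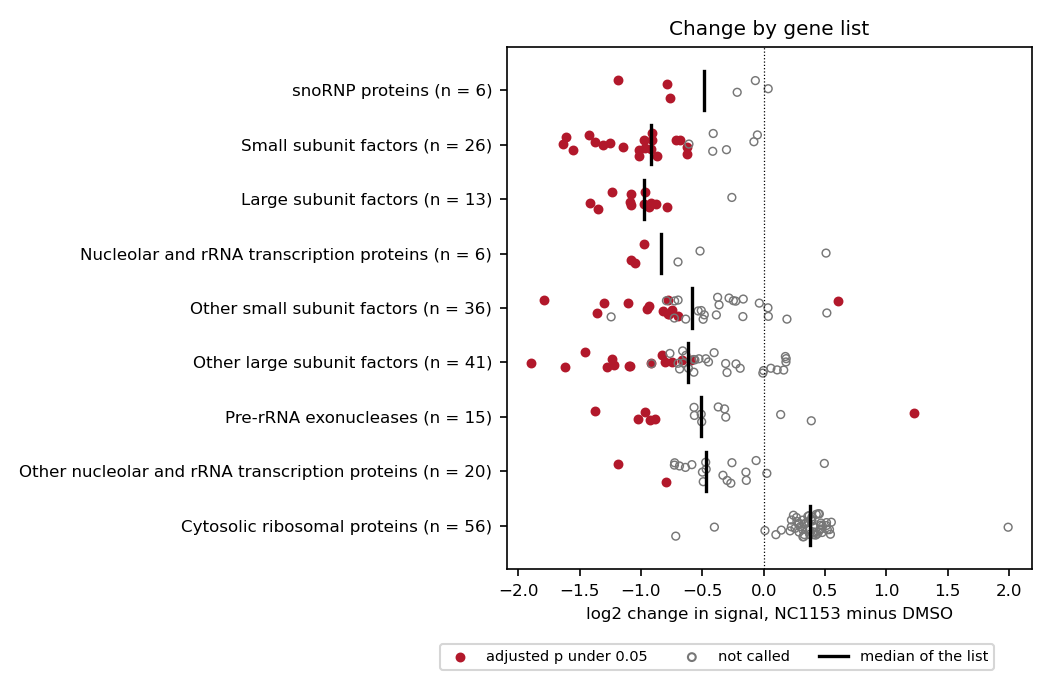
Each point is a gene, placed by its log2 change, NC1153 minus DMSO, with the 4 roles of the 51 genes above the further assembly factors and the cytosolic ribosomal proteins. Black bars are list medians, which run from -0.97 for large subunit factors to 0.37 for ribosomal proteins.

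Messages for the ribosomal proteins themselves, the cargo of these factors, were not called. Of 56 cytosolic ribosomal protein genes 0 were lower and 0 higher by limma, with 13 at an unadjusted p under 0.05, a median log2 change of 0.37 and 54 of 56 values above 0. The 2 below 0 are the paralogs RPL10L and RPL3L, the latter with 9.07 and 12.6 with NC1153 and 14.7 and 13.5 with DMSO. The highest, RPL36A (1.99), had 267 and 225 with NC1153 and 47.9 and 79.0 with DMSO, far dimmer than most of the list. Ribosomal protein genes with no probe set of their own are not among the 56. The median was 0.61 within replicate 1 and 0.15 within replicate 2, 0.011 after quantile normalization and -0.057 with spike-in centring. Without NC1153 replicate 2, where NC1153 replicate 1 alone is set against the 2 DMSO arrays and has no spread of its own, 43 of them were called higher. The median of the 51 assembly genes was between -1.35 and -0.90 under the scalings tried, each time below that of all probe sets.

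**Figure D5:**
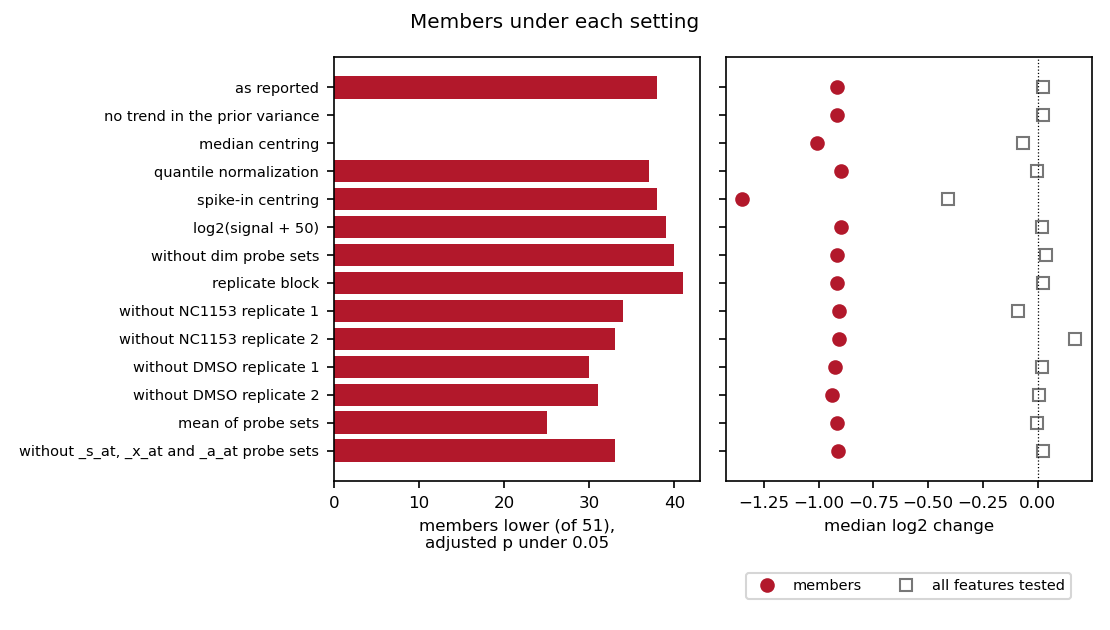
For each setting the left panel counts the genes lower at an adjusted p under 0.05, of 51, and the right panel gives the median log2 change of the 51 genes (filled) and of all features tested (open). The count is 0 with no trend in the prior variance and with median centring, and between 25 and 41 otherwise, while the median of the 51 genes stays between -1.35 and -0.90.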

How the data were processed

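RNA of 4 Kit225 samples was measured on 1-colour arrays. The deposited table of all 54675 probe sets, 62 of them controls, gives linear intensities, with the trimmed mean alike on all arrays; the software behind them is not given in the sources used here. The authors' second table holds log2 values by RMA and raw p-values for 2252 probe sets that passed a q-value limit of 0.05 after limma, per the file headers, and served only as a comparison. No detection calls were used.

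The log2 of the signal, with no pseudocount, was modelled in R 4.3.3 by limma 3.58.1, using lmFit, then eBayes with a variance trend, two-sided, over 54613 non-control probe sets, with 2 residual and 7.27 prior degrees of freedom. Every adjusted p is from this fit, Benjamini-Hochberg adjusted over all of them, unless a setting is named. Intervals are 95% limma intervals. The number of arrays limits the precision. On simulated data of 54613 probe sets, 200 of the brighter ones were given a change. The fit called 6% of those given a log2 change of 1 and 44% of those given 2, and 7.41% of its calls were false. In the real data 971 probe sets were called lower and 1062 higher. The adjusted p depends on how many probe sets change, so these simulated shares are not those of the real data.

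Probe sets were named by the platform annotation, with symbols updated through a RefSeq gene table (41037 of 41091 with 1 gene matched). Each gene was represented by its probe set of highest mean log2 signal over all arrays. The genes, roles and lists were chosen with earlier results of these data known. All 51 genes may be named. Values on each array are given for up to 5 genes per role with the largest change past the threshold and the 2 nearest to 0. They are also given for genes whose probe sets disagree, for RRP1 with RRP1B, and outside this rule for WDR12 and PNO1. Of the further factors, the 3 largest past the threshold per list and any of opposite direction are named by rule. Outside that rule and with their values known, MRM3, NMD3, EIF6, RSL24D1, ZNF622, EFL1, LSG1, MTREX, EXOSC1, EXOSC2, EXOSC8 and SNU13 are named as well. Array values of further factors are given for DHX37, RIOK3, DDX31, CCDC86 and ERI1 only. Equally numbered arrays deviated together only weakly (r = 0.055 over probe sets, 0.12 over brighter ones). The array names in the file header share a number within each replicate, whose meaning is not given, so equally numbered arrays may have been handled together. The fit was set without the replicate number, and counts with it as a block are given beside those it moves. Alternatives changed the variance model, the scaling, a pseudocount of 50, a filter on dim probe sets, the probe set used, the replicate block, and left out each array in turn.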

Additional observations from a re-analysis of the deposited data

How the results depend on the processing

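With no trend in the prior variance, 0 probe sets were lower and 0 higher over the array (971 and 1062 as reported), 0 of the 51 genes and of each role were lower, and 0 of the 112 further factors were lower or higher. Median centring left 24 probe sets lower and 23 higher, 0 genes called in any list, and a median of -1.01 for the 51 genes. Spike-in centring left 85 probe sets higher and 0 further factors higher, with medians of -1.35 for the 51 genes, -0.41 for all probe sets and -0.057 for ribosomal proteins. Quantile normalization gave 0.011 for ribosomal proteins. The cause of these moves was not tested. Without dim probe sets, where fewer were tested, 1587 were lower and 1722 higher, and 1 ribosomal protein gene was higher. With the replicate block 1936 were lower and 2061 higher, with 41 of the 51 genes lower, 5 of the 6 nucleolar genes, and 50 of the further factors, and 1 ribosomal protein gene lower and 3 higher. No call among the 51 genes was lost with the block. With probe sets averaged, 25 of the 51 genes, 13 small subunit factors, 7 large subunit factors and 21 further factors were lower and 1 further factor higher, and UTP6 had 0.67 and UBTF 0.11. Without suffixed probe sets 1 ribosomal protein gene was lower and NCL had 0.27. FBL turned to -0.052 with median centring, -0.12 with quantile normalization and -0.39 with spike-in centring.

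Leaving out single arrays, which leaves 1 array in a group with no spread of its own, gave 643 to 1429 probe sets lower and 487 to 1197 higher, with the lowest of both without NC1153 replicate 1. It gave 30 to 34 of the 51 genes lower and 0 to 1 higher, with 1 to 3 snoRNP genes lower, 0 to 1 nucleolar gene higher, 21 to 34 further factors lower and 1 to 2 higher, and 0 to 1 ribosomal protein gene lower and 0 to 43 higher. FBL ranged from -0.13 to 0.21 and NOP10 from -0.26 to 0.13.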
